A study of Mus musculus with 12 samples.

Results

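Transcripts of 10 enzymes that handle peroxide, superoxide or cysteine were followed in sorted mouse metaphyseal osteoblasts: the glutathione peroxidases *Gpx1*, *Gpx3*, *Gpx4*, *Gpx7* and *Gpx8*, the superoxide dismutases *Sod1*, *Sod2* and *Sod3*, catalase (*Cat*) and cysteine dioxygenase (*Cdo1*). They were taken by name from the 32288 genes and transgenes of the count table. The set was chosen knowing that *Gpx3* and *Cdo1* had been lower with *c-Myc* or with added *R172H* in an earlier analysis of the same libraries, so in those comparisons the members are described with no test. All 10 passed the filter on low counts in every comparison.

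Bulk RNA-seq was carried out on mGFP+ CD31- CD45- TER119- cells from the metaphysis of the distal femur and proximal tibia. All groups carried *Osx-CreERT2*, a tamoxifen-activated recombinase expressed from the osteoblast gene *Osx* (*Sp7*), with the *mTmG* reporter that turns on membrane GFP after recombination, and all received tamoxifen. Juvenile *Osx*+ osteoblasts came from 3-week-old mice (4 libraries) and adult *Osx*+ osteoblasts from 8-week-old mice (4 libraries), with 2 male mice pooled per library. *c-Myc*-induced osteoblasts (2 libraries) had in addition *LSL-tTA* and *Col1a1::TetO–c-Myc*, which together express *c-Myc* once Cre has acted, and *c-Myc* + *R172H* osteoblasts (2 libraries) also carried *Trp53-LSL-R172H*, a mutant *Trp53* allele switched on by the same Cre. No group carried *R172H* alone. Titles label both induced groups as 3 weeks, whereas the dissection protocol calls these mice 5-week-old, and their bones were trimmed 5 mm below the growth plate against 2 mm in the controls. Induced cells were collected 7 days after tamoxifen from mice of both sexes. Age at dissection, trimming and tamoxifen schedule therefore differed between *c-Myc* and juvenile libraries along with *c-Myc*, and cannot be told apart from it.

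Library totals were 9066154 to 15684412 counts. *Myc*, the induced gene, averaged 45.4 ± 5.28 CPM in juvenile, 47.3 ± 2.73 in adult (SD, n = 4 each), 653 ± 21.1 in *c-Myc* and 711 ± 79.1 in *c-Myc* + *R172H* libraries (SD, n = 2 each). CPM are counts scaled to a common library size with TMM factors over all 12 libraries. The 8 osteoblast markers were detected in every library, but their summed level was 388000 to 562000 CPM in juvenile, 225000 to 406000 in adult, 68500 to 91000 in *c-Myc* and 37400 to 39300 in *c-Myc* + *R172H* libraries. Nearly all of this sum was *Col1a1*, with means of 480000, 306000, 78100 and 37100 CPM in the same order. *Sp7* averaged 235, 174, 140 and 124 CPM and *Runx2* 225, 171, 144 and 148. Between *c-Myc* and juvenile libraries 6 of the 8 markers were called lower, but not *Sp7* and *Runx2*. The 16 chondrocyte markers summed to 18600 to 36500, 44500 to 142000, 1930 to 2160 and 902 to 1070 CPM in the same order of groups, and in each induced group 14 of the 16 were detected in every library. Most of the sum in the induced groups was 1 gene, *Col11a2*, with means of 1570 CPM in *c-Myc* and 811 in *c-Myc* + *R172H* libraries. Marrow stromal and adipocyte markers, 8 of 12 of them detected in every library of each group, summed to 357 to 442, 454 to 714, 167 to 251 and 149 to 171 CPM. Erythroid, myeloid, endothelial and muscle lists never summed above 0.98, 13.1, 10.1 and 3.21 CPM. *Xist*, transcribed from the inactive X chromosome, was at 237 and 217 CPM in replicate 2 of the 2 induced groups and at most 1.23 CPM in the other libraries. In such bulk samples, fewer cells of a type and less RNA per cell cannot be told apart.

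Superoxide dismutases turn superoxide into hydrogen peroxide: SOD1 in the cytosol with copper and zinc, SOD2 in mitochondria with manganese, and SOD3 outside the cell. Peroxide is then removed by catalase in peroxisomes and by glutathione peroxidases. GPX1 and GPX4 work inside cells, GPX4 on lipid peroxides, while GPX3 is secreted, and all of them use a selenocysteine placed by a UGA codon that would elsewhere end the protein. GPX7 and GPX8 sit in the endoplasmic reticulum, use cysteine instead and are linked to the folding of secreted proteins such as collagen. CDO1 oxidises cysteine to cysteine sulfinate, which draws on the cysteine that glutathione is made from.

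The codon that separates the selenium-dependent from the cysteine-dependent peroxidases is shown because their levels are set side by side by kind below. Each line gives 33 bases of coding sequence (GENCODE vM21, GRCm38), 5′ to 3′ on the gene's own strand, with the selenocysteine codon, or the cysteine codon aligned with that of *Gpx3*, in capitals.
Gpx3: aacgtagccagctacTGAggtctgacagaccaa
Gpx1: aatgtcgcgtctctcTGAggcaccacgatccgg
Gpx4: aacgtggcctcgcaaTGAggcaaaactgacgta
Gpx7: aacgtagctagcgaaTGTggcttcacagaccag
Gpx8: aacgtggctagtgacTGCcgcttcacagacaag
The capitals lie in coding exons at chr11:54907256-54907258 on the plus strand for *Gpx3*, chr9:108339451-108339453 plus for *Gpx1*, chr10:80054737-80054739 plus for *Gpx4*, chr4:108403430-108403432 minus for *Gpx7* and chr13:113045661-113045663 minus for *Gpx8*. Over these 33 bases, 25 of *Gpx7*, 22 of *Gpx8*, 20 of *Gpx4* and 16 of *Gpx1* were the same as in *Gpx3*. The annotation marks the 3 TGA codons as selenocysteine.

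*Gpx3* (chr11:54902453-54910377, plus strand) was the glutathione peroxidase whose level spanned the widest range. It was at 555, 761, 820 and 435 CPM in the adult libraries (replicates 1 to 4), 328, 304, 326 and 315 in the juvenile, 94.1 and 98.1 in the *c-Myc* and 56.7 and 53.9 in the *c-Myc* + *R172H* libraries. The 4 groups did not overlap, in the order adult, juvenile, *c-Myc*, *c-Myc* + *R172H*, and the adult libraries were spread much more widely than the juvenile ones. Of all genes tested, 12.9% likewise did not overlap between juvenile and adult libraries and 64.8% between *c-Myc* and juvenile libraries. Between the 2 induced groups 44.9% did not, and these shares apply to each such statement on the genes below. *Sod3* (chr5:52363791-52371418, plus strand), the other secreted enzyme, was low in all groups, at 4.72, 11.4, 6.78 and 2 CPM in adult, 2.53, 3.48, 3.56 and 3.31 in juvenile, 0.933 and 0.978 in *c-Myc* and 0.422 and 0.356 in *c-Myc* + *R172H* libraries. Its adult and juvenile libraries overlapped and its other neighbouring groups did not.

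The endoplasmic reticulum peroxidases were high in both control groups. *Gpx7* (chr4:108400390-108406961, minus strand) was at 50.7, 50.3, 48.5 and 35.8 CPM in juvenile, 29.2, 40.2, 45.5 and 29.4 in adult, 12.3 and 11.3 in *c-Myc* and 7.64 and 7.58 in *c-Myc* + *R172H* libraries. *Gpx8* (chr13:113042753-113046410, minus strand) was at 59.9, 55.2, 78.7 and 44.2 CPM in juvenile, 63.1, 78.6, 68.3 and 47.3 in adult, 21 and 18.9 in *c-Myc* and 11.2 and 13.9 in *c-Myc* + *R172H* libraries. For both genes the controls overlapped each other, every *c-Myc* library was below every control library, and both *c-Myc* + *R172H* libraries were below the *c-Myc* libraries. Between *c-Myc* and juvenile libraries 64.8% of all genes tested did not overlap, and between the induced groups 44.9%.

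The intracellular selenoenzymes had another pattern. *Gpx1* (chr9:108338903-108340343, plus strand) was at 32.2, 35.6, 32.1 and 35.6 CPM in juvenile, 25.5, 32.9, 37.3 and 27 in adult, 61.6 and 53.1 in *c-Myc* and 54.9 and 53.5 in *c-Myc* + *R172H* libraries. Its induced libraries lay above all controls and overlapped each other. Of all genes tested, 64.8% did not overlap between *c-Myc* and juvenile libraries. *Gpx4* (chr10:80047166-80056439, plus strand) had overlapping neighbours throughout, with 22.9 to 37.5 CPM in juvenile, 21.1 to 35.2 in adult, 31.9 and 36.6 in *c-Myc* and 32.7 and 34.8 in *c-Myc* + *R172H* libraries. Its transcript matched the pseudogene transcript *Gpx4-ps2* over 733 bases at 99.7% identity, so its count is uncertain to the extent that reads could be placed at either.

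The mitochondrial dismutase *Sod2* (chr17:13006846-13040063, plus strand) was at 17.8, 20.8, 25.5 and 21.2 CPM in juvenile, 26, 27.5, 23.1 and 20 in adult, 63.8 and 70.2 in *c-Myc* and 66.6 and 63.6 in *c-Myc* + *R172H* libraries. Every induced library was above every control library, and the 2 induced groups overlapped. Between *c-Myc* and juvenile libraries 64.8% of all genes tested did not overlap. *Sod1* (chr16:90220754-90226329, plus strand) ranged only from 40.5 to 60.6 CPM over the 12 libraries and *Cat* (chr2:103453849-103485160, minus strand) from 10.9 to 18.2 CPM. *Sod1* matched the pseudogene *Gm8566* over 465 bases at 97.8% identity. *Sod1* and *Cat* had overlapping ranges between all groups next to each other in the order of their means.

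*Cdo1* (chr18:46713193-46728395, minus strand) was at 333, 352, 334 and 330 CPM in juvenile, 149, 290, 301 and 179 in adult, 55.8 and 60.8 in *c-Myc* and 26.8 and 30.6 in *c-Myc* + *R172H* libraries. None of the groups overlapped, in the order juvenile, adult, *c-Myc*, *c-Myc* + *R172H*. Of all genes tested, 12.9% did not overlap between juvenile and adult, 64.8% between *c-Myc* and juvenile and 44.9% between the induced libraries. *Cdo1* and *Gpx3* shared the order of the induced groups but not that of the controls.

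**Figure D1:**
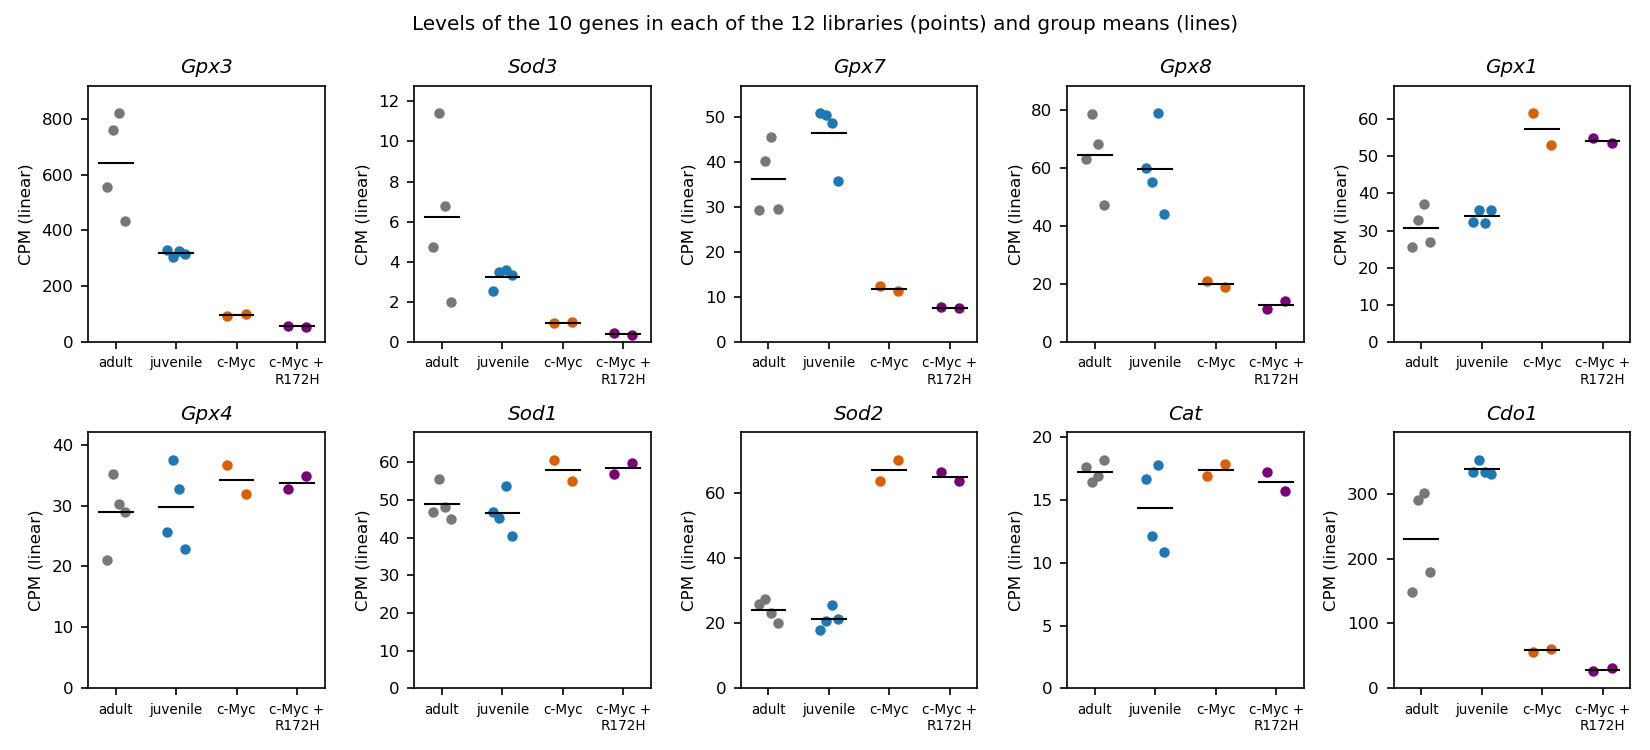
Levels of the 10 genes in CPM on linear axes from 0, with 1 point per library and a line at each group mean. *Gpx3*, *Sod3*, *Gpx7*, *Gpx8* and *Cdo1* sit lowest in the induced groups, *Sod2* and *Gpx1* sit highest there, and *Gpx4*, *Sod1* and *Cat* have overlapping ranges between neighbouring groups.

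Levels of different genes were compared only per length, as CPM divided by the kilobases of all annotated exons of the gene (GENCODE vM21). On this scale *Cdo1* and *Gpx3* were the 2 highest members in juvenile libraries, at 205 ± 6.18 and 176 ± 6.12 (SD, n = 4), against 56.8 ± 13.7 for *Gpx8*, next in order. *Gpx3* came first in adult libraries at 355 ± 98.7, followed by *Cdo1* at 140 ± 47.1 (SD, n = 4). In *c-Myc* + *R172H* libraries *Gpx1* came first at 37.6 ± 0.668, followed by *Gpx3* at 30.5 ± 1.09, *Gpx4* at 19.6 ± 0.875 and *Cdo1* at 17.5 ± 1.62 (SD, n = 2). *Sod3* was last in every group. The annotated exons of *Sod2* add up to 10008 bases against 1441 for *Gpx1*, so the level per length of *Sod2* is understated if only some of these exons are used.

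The make-up of the 5 peroxidase transcripts differed between groups. *Gpx3* held 73.2% ± 2.48 of their summed level per length in adult, 57% ± 3.5 in juvenile (SD, n = 4 each), 37.7% ± 2.83 in *c-Myc* and 28.9% ± 1.27 in *c-Myc* + *R172H* libraries (SD, n = 2 each). *Gpx1* held 4.5% ± 0.645, 7.66% ± 0.957, 28.2% ± 1.63 and 35.6% ± 0.919 in the same order, and *Gpx4* 3.58% ± 0.926, 5.57% ± 1.13, 14.1% ± 0.707 and 18.6% ± 0.636. The sum of the cysteine-dependent *Gpx7* and *Gpx8* was 92.7 ± 17.6 CPM per kilobase in juvenile, 89.4 ± 17.4 in adult, 28.1 ± 1.95 in *c-Myc* and 17.9 ± 1.82 in *c-Myc* + *R172H* libraries. The sum of *Gpx1* and *Gpx4* was 40.7 ± 4.2, 38 ± 6.53, 59.7 ± 6.11 and 57.2 ± 0.207 CPM per kilobase in those groups. The selenium-dependent genes did not move as a block, since *Gpx3* was lowest where *Gpx1* was high.

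**Figure D2:**
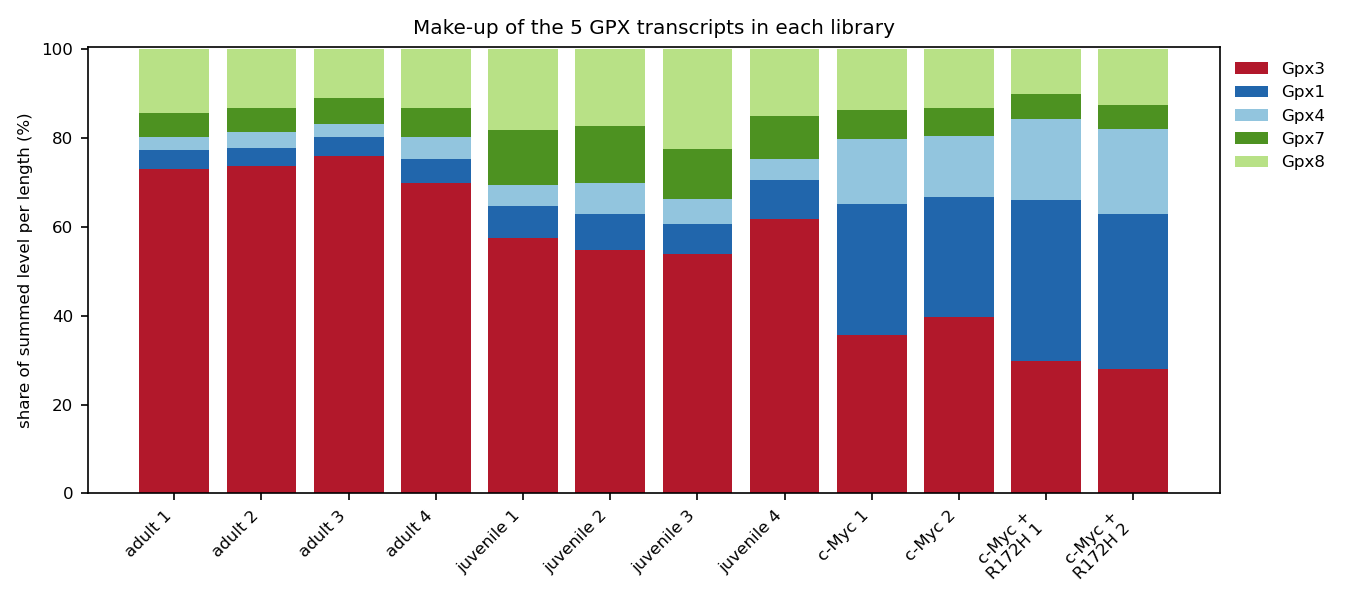
Share of each of the 5 glutathione peroxidase genes in their summed level per length, in percent, with 1 stacked bar per library. The *Gpx3* segment narrows from 69.9% to 75.9% in the adult libraries to 28% to 29.8% in the *c-Myc* + *R172H* libraries, and the *Gpx1* segment widens.

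The comparison of juvenile with adult osteoblasts asks how expression differs between growing bone and bone near the end of growth. The choice of members did not use it, so the members were tested here, although its juvenile libraries also serve as controls of the *c-Myc* comparison. *Gpx3* was the single member called, and it was 2.03-fold lower in juvenile than in adult libraries, a log2 fold change of -1.02 (SE 0.17, 95% interval -1.35 to -0.70) with an adjusted p = 0.00212 (edgeR quasi-likelihood test). Of all 11345 genes tested, 5.12% were called, 1.89% higher and 3.23% lower in juvenile libraries, so 1 of 10 members is close to what the whole table gives. *Gpx3* and *Cdo1* were the 2 members whose groups did not overlap, against 12.9% of all genes.

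*Cdo1* was on average 1.46-fold higher in juvenile libraries, with a log2 fold change of 0.55 (SE 0.19, interval 0.18 to 0.92), but did not pass over all genes (edgeR adjusted p = 0.109). Its 4 juvenile libraries lay within 330 to 352 CPM while the adult ones varied from 149 to 301. *Sod3* had a log2 fold change of -0.95 (SE 0.45, interval -1.83 to -0.08) with an edgeR adjusted p = 0.246, and *Gpx7* one of 0.35 (SE 0.17, interval 0.03 to 0.68) with 0.25. For *Gpx1* the 95% interval of the log2 difference was -0.16 to 0.44, for *Gpx4* -0.34 to 0.40, for *Gpx8* -0.46 to 0.22, for *Sod1* -0.34 to 0.18, for *Sod2* -0.54 to 0.15 and for *Cat* -0.67 to 0.13. Those intervals give the differences compatible with these 4 libraries per group, and they are not limits of detection.

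The adult libraries with the lower *Gpx3* and *Cdo1* levels, replicates 1 and 4, had the higher chondrocyte sums, 142000 and 87500 CPM against 44500 and 67100 in replicates 2 and 3. Leaving out replicates 1 and 4, a choice made after seeing the data, gave log2 fold changes of -1.32 for *Gpx3* and 0.18 for *Cdo1*. As these are also the adult libraries with the lowest *Gpx3* and *Cdo1*, their removal had to raise both adult means, and it is no check of the *Gpx3* call. For *Cdo1*, without adult replicate 2 the log2 difference passed at 0.69 (adjusted p = 0.039) and without adult replicate 3 at 0.70 (adjusted p = 0.0461). The part of chondrocyte RNA in these differences was not tested.

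**Figure D3:**
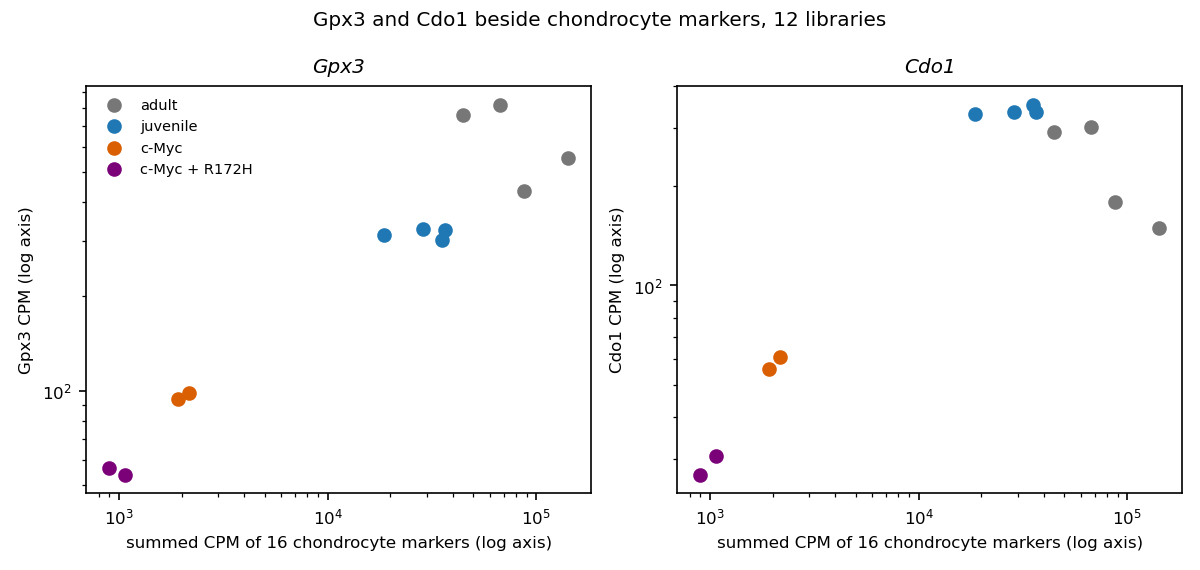
CPM of *Gpx3* and of *Cdo1* against the summed CPM of 16 chondrocyte markers, both on log axes, with 1 point for each of 12 libraries. Among the 4 adult points, the 2 with sums of 87500 and 142000 CPM have the lower *Gpx3* and *Cdo1* levels. All induced points lie at sums of 2160 CPM or less, of which *Col11a2* makes up most.

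Between *c-Myc* and juvenile libraries, a comparison made to see what *c-Myc* induction does to juvenile osteoblasts, *Cdo1* was 6.05-fold lower and *Gpx3* 3.46-fold lower, with log2 fold changes of -2.60 (SE 0.10) and -1.79 (SE 0.09). These values chose the set and carry no test. *Gpx7* was 4.11-fold lower at -2.04 (SE 0.18), *Gpx8* 3.12-fold lower at -1.64 (SE 0.21) and *Sod3* 3.49-fold lower at -1.81 (SE 0.55) on the log2 scale. *Sod2* was 3.02-fold higher at 1.60 (SE 0.13) and *Gpx1* 1.62-fold higher at 0.69 (SE 0.11). *Sod1* at 0.25 (SE 0.12), *Cat* at 0.21 (SE 0.22) and *Gpx4* at 0.14 (SE 0.18) lay closest to no difference. For 8 of 10 members the libraries of the 2 groups did not overlap, beside 64.8% of all genes tested, and nothing is read from this. At an adjusted p under 0.05 together with a log2 difference of 1 or more in size, 6 of 10 members fell in the called set, 5 lower and 1 higher, where 34.4% of 12588 genes did, 18.4% higher and 16% lower; since the members were chosen on this contrast, nothing is read from that share.

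*Xist* was at 0.0467 CPM in *c-Myc* replicate 1 and 237 in replicate 2, in which *Gpx3* was at 94.1 and 98.1 CPM and *Cdo1* at 55.8 and 60.8. The part of sex in these values was not tested. All 16 chondrocyte markers, 6 of 8 osteoblast markers and 3 of 8 tested marrow stromal and adipocyte markers were called lower with *c-Myc* in the same fit, and 1 marrow marker higher. Their part in the values of *Gpx3*, *Gpx7*, *Gpx8*, *Sod3* and *Cdo1* was not tested. Scaling by library totals instead of TMM moved the median log2 fold change of all genes from 0.04 to 0.87. On that scale *Cdo1* was at -1.77, *Gpx7* at -1.22, *Sod3* at -0.97, *Gpx3* at -0.96 and *Gpx8* at -0.80, all still below 0. *Sod2* was at 2.43 and *Gpx1* at 1.53, above the shift, and *Sod1* at 1.08, *Cat* at 1.03 and *Gpx4* at 0.98 were near it. The same scaling moved the median to -0.24 for juvenile over adult and to 0.21 for added *R172H*.

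Between *c-Myc* + *R172H* and *c-Myc* libraries, the comparison on what mutant p53 adds, *Cdo1* was 2-fold lower (SE 0.11 on the log2 scale) and *Gpx3* 1.71-fold lower (log2 -0.78, SE 0.10). *Gpx8* at -0.64 (SE 0.23), *Gpx7* at -0.61 (SE 0.20) and *Sod3* at -1.26 (SE 0.64) were on the same side, and for these 5 genes the libraries of the 2 groups did not overlap, as for 44.9% of all genes. *Sod3* rested on levels under 1 CPM. The log2 differences of *Gpx1*, *Gpx4*, *Sod1*, *Sod2* and *Cat* were between -0.06 and 0.04, with SEs from 0.13 to 0.25. *Gpx3* and *Cdo1* were the 2 of 10 members in the called set, at an adjusted p under 0.05, where 0.469% of 12588 genes were called, 0.00794% higher and 0.461% lower, and again nothing is read from this because the contrast chose the members. Chondrocyte sums were also lower, at 902 and 1070 against 1930 and 2160 CPM, with 0 of 16 markers called. Of 8 osteoblast markers 1 was called lower, *Col1a1*, with means of 37100 against 78100 CPM. Of 8 tested marrow stromal and adipocyte markers 1 was called lower, *Lepr*, with means of 9.54 against 20.4 CPM. The part of such cells in the values of the members was not tested. With 2 libraries per group these differences depend on a spread estimated jointly with the juvenile libraries.

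**Figure D4:**
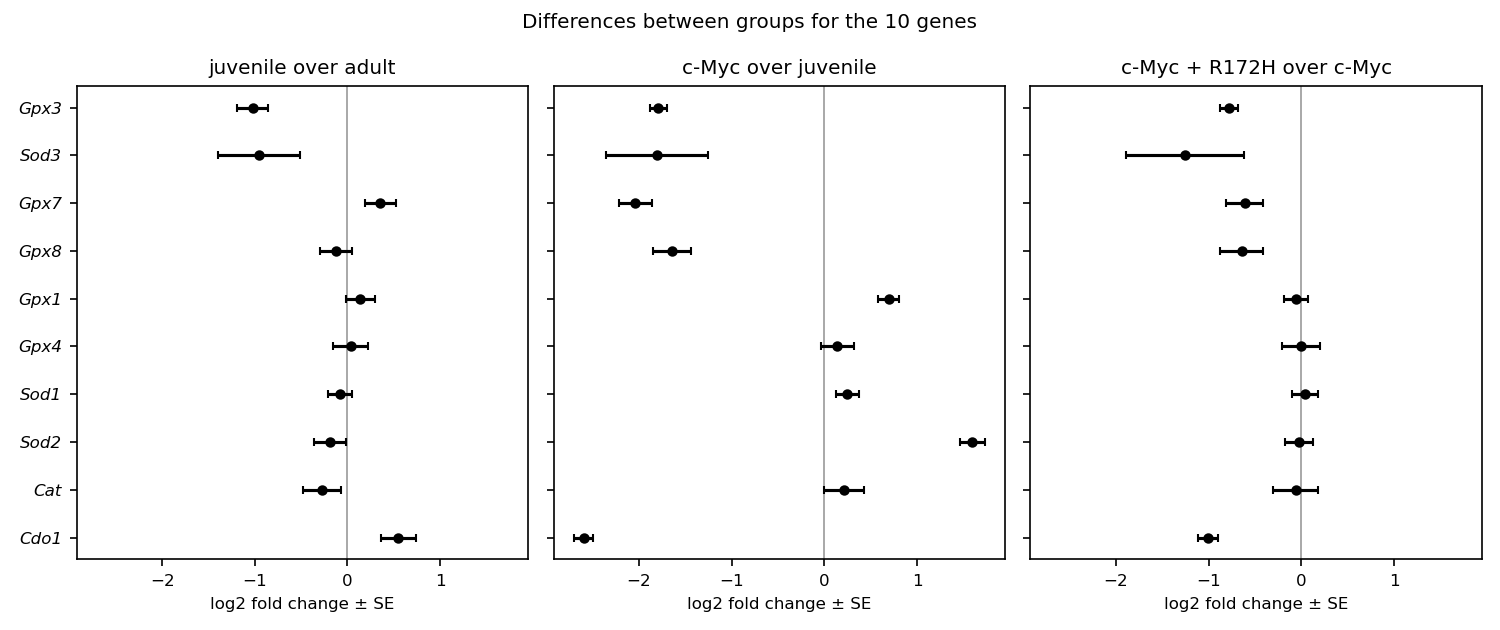
Log2 fold change of the 10 genes, with bars of 1 SE, for juvenile over adult, *c-Myc* over juvenile and *c-Myc* + *R172H* over *c-Myc*. In the middle panel *Cdo1* is at -2.60 and *Sod2* at 1.60; in the right panel the same 5 genes remain left of 0 and the other 5 lie at 0 within 1 SE.

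The enzymes around CDO1 were taken from a list of 16 genes for cysteine, hydrogen sulfide and taurine metabolism, none of them members. Of the 14 tested between *c-Myc* and juvenile libraries, 7 rose and 3 fell (edgeR adjusted p under 0.05 and a log2 difference of 1 or more in size), which is 50% and 21.4% of them beside 18.4% and 16% of all genes, and the median log2 fold change was 1.03 against 0.04 over all genes. Both enzymes of the transsulfuration route that makes cysteine, *Cbs* and *Cth*, had no count in any of the 4 juvenile libraries. *Cth* had 75 and 35 counts in the *c-Myc* libraries and was at least 6.71-fold higher. *Cbs* had 49 and 23 counts there and was at least 4.39-fold higher. The floor was the highest level that 3 counts give in 1 juvenile library. *Cth*, *Cbs* and *Tst*, given below, passed the filter on low counts only through the induced libraries. Their rise was thereby fixed in advance, so no test is given for them. They still count among the 7 and in the median, so neither is read as a result. *Suox*, sulfite oxidase, fell from 8.8 ± 2.31 to 3.71 ± 1.1 CPM (log2 -1.32, SE 0.36, adjusted p = 0.00785), and *Sqor*, which oxidises hydrogen sulfide in mitochondria, from 4.51 ± 1.72 to 1.01 ± 0.367 CPM (log2 -2.22, SE 0.55, adjusted p = 0.00439).

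Some genes next to CDO1 in the pathway were named after their values were seen. *Csad*, which takes the product of CDO1 on towards taurine, fell by 1.07 on the log2 scale (SE 0.25, edgeR adjusted p = 0.00281). *Ado*, the other thiol dioxygenase that yields hypotaurine, rose by 1.08 (SE 0.16, adjusted p = 0.000106). *Got1*, which transaminates cysteine sulfinate as well as aspartate, was at 3.56 to 9.05 CPM in juvenile and 46.8 and 46.9 CPM in *c-Myc* libraries, a log2 rise of 2.66 (SE 0.23, adjusted p = 1.26e-06). *Tst*, a mitochondrial sulfurtransferase, was at 0.307 to 1.27 CPM in juvenile and 18.1 and 21.1 CPM in *c-Myc* libraries.  Between the 2 induced groups none of the 14 tested genes of this list passed in edgeR, none had an unadjusted p under 0.05 and DESeq2 called 0.

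Among the other antioxidant groups, peroxiredoxins and the thioredoxin and glutathione genes held members called in each direction with *c-Myc*. Of all genes tested, 18.4% were called higher and 16% lower. These shares apply to each count in this paragraph and the next 2. The lists were written with earlier results known, so no count is read as a result about its group. Among 6 peroxiredoxins, which reduce peroxide, 3 rose and 2 fell. The mitochondrial *Prdx3* rose from 14.8 ± 3.08 to 50.3 ± 8.79 CPM (log2 1.69, SE 0.17, edgeR adjusted p = 4.73e-06) and *Prdx6* from 41 ± 4.78 to 119 ± 10.1 CPM (adjusted p = 4.79e-07). *Prdx4*, of the endoplasmic reticulum, fell from 54.5 ± 7.25 to 28.5 ± 0.449 CPM (adjusted p = 8.51e-05) and *Prdx5* from 62.2 ± 3.81 to 28.5 ± 2.98 CPM (adjusted p = 4.12e-06). Of 15 genes of the thioredoxin and glutaredoxin systems 5 rose and 3 fell. *Txn1*, cytosolic thioredoxin, rose from 23.4 ± 7.26 to 79.9 ± 4.64 CPM and *Glrx5*, a mitochondrial glutaredoxin of iron-sulfur cluster assembly, from 13.5 ± 2.74 to 58.2 ± 4.88 CPM (adjusted p = 1.01e-05 and 5.79e-07). *Txnip*, which binds and inhibits thioredoxin, fell from 83.2 ± 32.4 to 27.3 ± 0.0808 CPM and *Srxn1*, sulfiredoxin, from 18.1 ± 1.85 to 7.36 ± 1.14 CPM (adjusted p = 0.000237 and 0.000277).

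Of 12 tested genes of glutathione synthesis and recycling, 4 rose and 3 fell. *Gclm*, the modifier subunit of the enzyme that joins glutamate to cysteine, rose from 6.82 ± 0.718 to 24.4 ± 0.283 CPM (log2 1.77, SE 0.17, edgeR adjusted p = 2.99e-06) and *Ggct* from 0.687 ± 0.206 to 2.86 ± 0.0519 CPM (adjusted p = 0.00552). The γ-glutamyl transferase genes *Ggt5* and *Ggt7* fell, by 1.62 and 1.39 on the log2 scale (adjusted p = 0.000943 and 0.0243). Of 12 tested glutathione transferases 3 rose and 0 were called lower in edgeR, where 2 lower ones had an unadjusted p under 0.05. Of these, *Gstz1* missed only the fold threshold (log2 -0.63, SE 0.21, edgeR adjusted p = 0.0235). DESeq2 called 1 transferase, *Gstt1*, lower. The 2 largest rises called in edgeR were *Gsto1*, from 7.48 ± 4.24 to 44.3 ± 0.0543 CPM, and *Gstm1*, from 9.1 ± 3.43 to 46.3 ± 3.52 CPM (adjusted p = 2.41e-05 and 3.77e-06). Among 14 tested genes of the NRF2 pathway outside these groups, only the ferritin light chain gene *Ftl1* was called, rising from 173 ± 7.13 to 396 ± 45.3 CPM (adjusted p = 5.39e-07). Of the 14, 7 had an unadjusted p under 0.05 in edgeR, 5 higher and 2 lower. *Fth1*, *Nfe2l2* and *Ephx1*, higher, and *Keap1* and *Nfe2l1*, lower, had an adjusted p under 0.05 but stayed under the fold threshold.

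The list of other selenoproteins held genes called in each direction. It left out those placed in other lists, such as *Txnrd1* (log2 1.65) and *Selenop* (log2 -1.60). Of the 11 tested genes of this list, 1 rose (9.09%) and 5 fell (45.5%), beside 18.4% and 16% of all genes. Their median log2 fold change was -0.91, against 0.04 over all genes. The endoplasmic reticulum selenoproteins *Selenom* and *Selenos* fell from 84.7 ± 6.89 to 17 ± 0.146 CPM and from 65.7 ± 3.76 to 21.5 ± 2.63 CPM (edgeR adjusted p = 3.46e-08 and 7.54e-07). The nuclear *Selenoh* rose from 11.8 ± 2.55 to 36.4 ± 0.929 CPM (adjusted p = 1.3e-05). In the machinery that supplies selenium and places selenocysteine, 2 of 12 rose and 1 fell. *Lrp8*, a receptor for selenoprotein P, rose from 2.66 ± 0.859 to 14.9 ± 1.28 CPM (log2 2.40, SE 0.27, adjusted p = 1.12e-05), *Sephs2*, which makes the selenium donor, from 12.5 ± 3.48 to 26.9 ± 2.41 CPM (adjusted p = 0.00151), and *Selenop*, the secreted selenium carrier, fell from 28 ± 6.79 to 9.63 ± 2.01 CPM (adjusted p = 0.000127). Of 8 tested genes for peroxide sources 3 fell, among them *Qsox1*, a secreted sulfhydryl oxidase, from 131 ± 12.4 to 46.8 ± 3.65 CPM and *Xdh*, xanthine dehydrogenase, from 16.7 ± 3.59 to 6.37 ± 0.626 CPM (adjusted p = 4.15e-07 and 0.000383). In the list of GPX, SOD and catalase relatives and metal delivery, the 4 tested genes were all of metal delivery: *Ccs*, *Atox1*, *Atp7a* and *Slc31a1*. *Gpx2*, *Gpx5* and *Gpx6* averaged 0 CPM in every group and were not tested. None of the 4 tested genes was called in edgeR or DESeq2, and 2 had an unadjusted p under 0.05, both lower. Of these, *Slc31a1* missed only the fold threshold (log2 -0.98, SE 0.11, edgeR adjusted p = 1.26e-05).

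Together, 26 of the 108 tested redox genes outside the 10 rose with *c-Myc* (24.1%) and 20 fell (18.5%), beside 18.4% and 16% of all genes. With library totals as scaling the same lists gave 54 higher and 2 lower, and without *c-Myc* replicate 1, 13 were lower. The split of directions thus depends on the scaling. *Prdx3*, *Prdx6*, *Txn1*, *Glrx5*, *Gsto1*, *Gstm1*, *Gclm*, *Ftl1*, *Lrp8* and *Selenoh* stayed called higher in all 18 alternatives run, and *Selenom* stayed called lower, with log2 values from -2.41 to -1.54. The fall of *Prdx4* only just passed the fold threshold. *Prdx4* was called in 9 of the 18, with log2 values from -1.09 to -0.17, and *Ggt7* and *Sephs2* were called in 14.

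**Figure D5:**
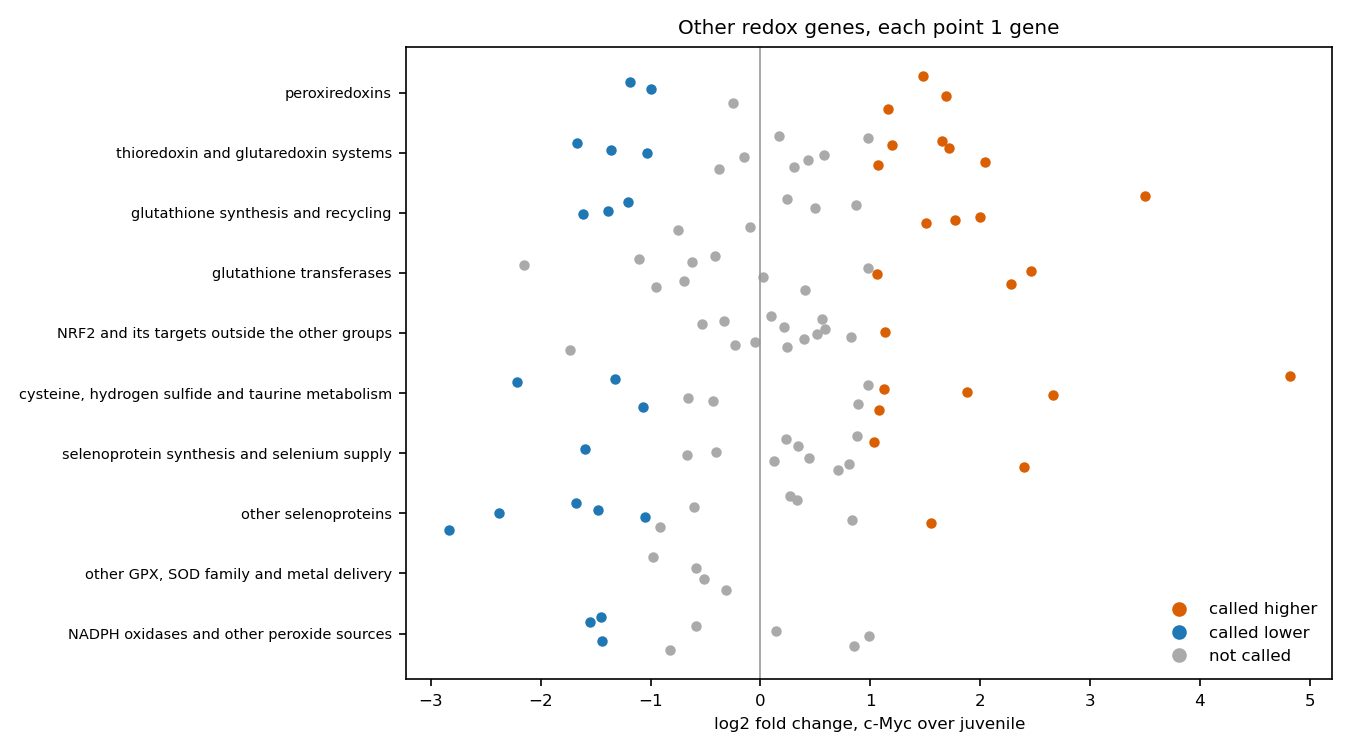
Log2 fold change between *c-Myc* and juvenile libraries for the tested redox genes outside the 10, 1 point per gene, by group, without *Cth* and *Cbs*, which had no juvenile counts. Orange and blue points passed in edgeR as higher and lower, and peroxiredoxins, thioredoxin, glutathione and cysteine genes have points on both sides of 0.

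Between juvenile and adult libraries 2 of 99 tested redox genes were higher (2.02%) and 3 lower (3.03%) in juvenile libraries, close to the 1.89% and 3.23% of all genes; leaving out any juvenile library, or adult replicate 1 or 4, left 1 higher, and leaving out juvenile replicate 1, 2 or 4 or adult replicate 4 left 1 lower. *Lrp8* was at 2.66 ± 0.859 against 17.1 ± 7.37 CPM (log2 -2.68, SE 0.35, edgeR adjusted p = 0.000543), so this selenium receptor gene was lower in juvenile than in both adult and *c-Myc* libraries, 2 comparisons that share the juvenile libraries. *Ephx1*, an epoxide hydrolase, was at 5.41 ± 1.95 against 11.7 ± 2.6 CPM (adjusted p = 0.0359) and *Txn1* at 23.4 ± 7.26 against 39.3 ± 9.21 CPM (adjusted p = 0.0436). *Ncf1*, a cytosolic NADPH oxidase subunit, was at 48.6 ± 4.83 against 20.3 ± 9.04 CPM (log2 1.25, SE 0.23, adjusted p = 0.00654) and *Selenom* at 84.7 ± 6.89 against 58.1 ± 9.3 CPM (adjusted p = 0.0259). *Lrp8* and *Ncf1* passed in all 17 alternatives run, *Ephx1* and *Txn1* in 10 and *Selenom* in 9.

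With added *R172H*, 0 of 108 tested redox genes outside the 10 passed in edgeR, where 7 had an unadjusted p under 0.05, 1 higher and 6 lower. DESeq2 called 1, *Selenom*, lower by a log2 fold change of -0.59 (adjusted p = 0.0357). The median log2 fold change of these genes was -0.01.

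By Pearson correlation of log2(CPM + 1) over the 12 libraries, among 6946 genes with a mean of at least 10 CPM, the genes most like *Gpx3* were *B2m* (r = 0.9913), *Fbln5* (0.9882), *Dsel* (0.9875), *Tulp4* (0.9871) and *Col8a1* (0.9869). Those most like *Cdo1* were *Src* (r = 0.9976), *Lox* (0.9976), *Gpr153* (0.9964), *Rassf4* (0.9956) and *Adamts2* (0.9954). *B2m* averaged 253 CPM in adult, 149 in juvenile, 56.1 in *c-Myc* and 45.1 in *c-Myc* + *R172H* libraries, and *Lox*, which cross-links collagen, 1060, 1470, 215 and 91.3. These coefficients describe libraries that fall into 4 groups and share the group differences.

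Promoter windows from 250 bases before to 50 after a start were available from RefSeq (GRCm38.p6) for 8 members, 11 windows in all; *Sod3* and *Cdo1* had no entry. The E-box CACGTG, which reads the same on both strands, was in 7.15% of all 32851 windows and in none of these 11. The motif TGACNNNGC, searched on both strands, was in 12.4% of all windows and in 1 of these, 56 bases before the start of *Sod1*. A match or its absence describes these letters only.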

How the data were processed

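RNA was sequenced from sorted cells of 12 libraries. Per the labels, the authors used cutadapt 4.6 for trimming, STAR 2.7.11a for alignment to mm10 and HTSeq 2.0.5 for counting; the deposited values are raw counts per gene; the strand setting of the counting is not given in the sources used here. Groups were taken from the sample titles. Replicates are separate libraries, and in the induced groups nothing says how many mice each holds, so p-values measure only the spread between these libraries.

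Counts were tested with edgeR 4.0.16 (TMM, filterByExpr, robust quasi-likelihood F test) in R 4.3.3, with Benjamini-Hochberg adjustment over all genes tested. The juvenile and adult libraries were fitted together (8 libraries), and both induced groups were fitted with the juvenile libraries (8 libraries). Genes were called at an adjusted p under 0.05, and for *c-Myc* against juvenile only with a log2 difference of 1 or more in size. SEs were approximated as the log2 difference over the root of the F statistic, and 95% intervals are 1.96 SE to each side. Errors and floors from counts cover counting error only; 3 counts correspond to 0.14 to 0.411 CPM. The procedure was tested on simulated data. Replicates differed from each other by more than sampling noise.

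The members, the list of 133 other redox genes (131 of them in the table) and the marker lists were chosen with earlier results of these data known. Besides the members and *Myc*, up to 2 called genes per redox group and direction were named, by the largest absolute log2 fold change among those with a mean of at least 1 CPM, and the 5 genes most correlated with *Gpx3* and with *Cdo1*. Gene positions, exons and codons came from GENCODE vM21 (GRCm38, the build of mm10), promoters from RefSeq. Near-identical copies were searched with BLAST+ 2.17.0 at 95% identity or more over at least 86 bases. Repeated stretches of *Sod2* exons also matched other genes. Alternatives were RLE normalization, library totals, other filters, DESeq2 1.42.0, other sets of libraries, a replicate block, no fold threshold, and leaving out libraries or the 3 most abundant genes.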

Additional observations from a re-analysis of the deposited data

Results flagged for a closer look

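*Gpx7* was at 35.8 CPM in juvenile replicate 4, apart from the other 3 juvenile libraries at 48.5 to 50.7 CPM. The gap to the nearest library was 0.856 of the group's range, above Dixon's critical ratio for 4 libraries. Of 20 groups of 4 libraries examined (10 genes in 2 groups), this was the 1 that stood out, and chance flags about 1 in 20.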

How the results depend on the processing

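The direction of *Gpx3* between juvenile and adult libraries, and its call, held in the 16 alternatives other than leaving out adult replicates 1 and 4, which could only widen it. *Gpx1* and *Gpx4*, neither called, turned sign: with library totals to -0.10 and -0.20, without the 2 adult libraries with the highest chondrocyte sums to -0.0547 and -0.146, and *Gpx4* to between -0.0914 and 0.150 when 1 library was left out, below 0 without juvenile replicate 2, juvenile replicate 3 or adult replicate 1; the cause was not tested here or below. For juvenile against adult, 581 genes were called in all: 923 by DESeq2, 1094 with all 12 libraries in the fit, 977 without a filter on low counts and 222 without those 2 adult libraries. The other redox genes went from 2 higher and 3 lower to 1 and 7 with library totals and to 1 and 1 without the 2 adult libraries, with 5 lower when unfiltered, where 2 members were called. Leaving out 1 library gave 1 to 2 members, 1 to 2 redox genes higher, 1 to 4 lower and 284 to 885 genes; the count of genes was 306, 284 and 333 without juvenile replicates 1, 2 and 4, 332 and 296 without adult replicates 1 and 4, and 885 without adult replicate 2.

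With *c-Myc*, 4330 genes became 6726 without the fold threshold, and library totals gave 54 redox genes higher and 2 lower. Leaving out 1 library gave 5 to 6 members, 23 to 29 redox genes higher, 13 (without *c-Myc* replicate 1) to 19 lower and 3439 to 4451 genes. Nothing is read from the counts of members, since this contrast chose them. Of the calls, 53.6% were higher with TMM and 88.2% with library totals; for juvenile against adult these were 36.8% and 6.26%.

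The contrast of added *R172H* chose the members, so nothing is read from their counts here or with a replicate block. With added *R172H*, the counts of members were 2 by edgeR, 0 with library totals, 0 with all 12 libraries and 4 when only the groups compared were fitted. Leaving out 1 library gave 1 to 2. All genes called numbered 59, against 12, 22 and 629 in those settings, 222 unfiltered, 182 by DESeq2 and 8 to 87 leaving out 1 library, with 28 without juvenile replicate 2, 8 without *c-Myc* replicate 2, and 13 and 10 without *c-Myc* + *R172H* replicates 1 and 2. Redox genes were 3 higher and 2 lower with only the groups compared and 1 lower by DESeq2. The share of higher calls was 1.69%, 8.33% with library totals and 30% with only the groups compared.

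Nothing in the labels says that a replicate number marks a shared batch, and the correlations do not establish a pairing: deviations correlated at -0.161 to 0.142 for juvenile and adult, -0.0583 and 0.106 for juvenile and *c-Myc*, and 0.335 for the 2 pairs of induced libraries, which are too few to decide; replicate 2 of both induced groups also shared a high *Xist* level. A replicate block gave 434 genes for age, 4533 for *c-Myc* and, with added *R172H*, 326 genes, 4 members and 1 redox gene lower. With 2 libraries per induced group, *Sod3*, under 1 CPM there, is the least precise member.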

Other observations

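Some further redox genes were named after their values were seen. *Txnrd1*, the selenoenzyme that recharges cytosolic thioredoxin, averaged 63.1 CPM in juvenile, 207 in *c-Myc* and 213 in *c-Myc* + *R172H* libraries, a log2 rise of 1.65 with *c-Myc* (SE 0.11, edgeR adjusted p = 1.86e-07). *Gclc*, the catalytic partner of *Gclm*, averaged 6.66, 19.7 and 21.7 CPM in the same groups (log2 1.51, SE 0.20, adjusted p = 3.89e-05). *Slc7a11*, part of the cystine importer, stayed low at 0.0452, 0.72 and 1.4 CPM. It passed the filter on low counts only through the induced libraries, so no test is given for it.

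The NRF2 gene *Nfe2l2* itself averaged 20.8 CPM in juvenile and 32.2 in *c-Myc* libraries, with a log2 difference of 0.56 (SE 0.16, edgeR adjusted p = 0.0105) under the fold threshold. *Hmox1*, heme oxygenase, was at 12.8 and 20.1 CPM (adjusted p = 0.0506) and *Nqo1*, a quinone reductase, at 1.08 and 1.24 CPM (adjusted p = 0.938).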
